A study of Mus musculus with 6 samples.

Results

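Amino acid transporters of the SLC1, SLC3, SLC7, SLC36, SLC38 and SLC43 families were measured on microarrays in isolated pancreatic acinar cells of mice with 2 genotypes. Members were chosen by gene symbol alone: every symbol that begins with Slc1a, Slc3a, Slc7a, Slc36a, Slc38a or Slc43a and a number. The array carried 44 such symbols on 64 probes, among 23458 named genes. Of these, 42 name carrier genes and 2, Slc7a6os and Slc36a1os, name loci on the opposite strand of a carrier gene, which were counted apart. The KC group (n = 3) carries Ptf1aCre, a Cre recombinase under the control of the pancreatic lineage gene Ptf1a, and KrasLSL-G12D, an oncogenic allele that Cre switches on. The KCS group (n = 3) carries both of these and Setdb1flox/flox, in which Cre can recombine the gene of a histone H3 lysine 9 methyltransferase. All mice were on a C57BL/6 background, and their age is not given in the sources used here. Ptf1aCre acts in the pancreatic lineage, so recombination is not limited to mature acinar cells. Whether each sample came from its own animal is not given in the labels, so p-values measure only the spread between these samples, which may be in part technical.

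Amino acid transporters move amino acids across the plasma membrane and the membranes of lysosomes. The heavy chain encoded by Slc3a2 carries several SLC7 light chains to the cell surface, where they exchange one amino acid for another. SLC38 proteins and some SLC1 proteins take up glutamine and other neutral amino acids with sodium, other SLC1 proteins take up glutamate and aspartate, and SLC36 proteins move small amino acids with protons. Acinar cells of the pancreas make large amounts of digestive enzymes and are known for high rates of amino acid uptake and protein synthesis.

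The levels below are log2 of the processed array signal minus the 75th percentile of that array, so each is relative to the array's own signal. That percentile was 61.2 to 68.6 scanner units in KC samples and 347 to 423 in KCS samples, while the spike-in controls had a median log2 signal of 9.74 to 10.11 in KC samples and 9.43 to 9.76 in KCS samples. The median log2 fold change over the 27102 rows tested was -0.19, but 2.70 when arrays were scaled to the spike-ins and 0.16 when each array was centred on its median. The log2 fold change with spike-in scaling is given beside each carrier called lower, because that scaling moves every gene upward. Between 26550 and 27235 of 56605 probes were well above background in KC samples, and between 35365 and 35920 in KCS samples. The single Setdb1 probe read -0.91, -1.05 and -0.32 in KC and -0.28, -0.44 and -0.55 in KCS. Its change of 0.33 ± 0.24 (SE) did not pass (limma adjusted p = 0.270), and where the probe lies relative to the loxP sites is not known here.

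Acinar markers were high in every KC sample and varied widely among the KCS samples. All 15 acinar markers, such as Cpa1 and Pnlip, were lower in KCS, with a median log2 level of 11.56, 11.35 and 11.48 in KC replicates 1, 2 and 3 and -5.76, -2.03 and 6.68 in KCS. KCS replicate 3 thus stood apart from the other KCS samples in acinar signal. Of these 15, 7 were well above background in KCS replicate 1, 12 in replicate 2 and 15 in replicate 3, so the median of KCS replicate 1 rests on signal near background and is not an exact level. Beside 25.9% of all rows higher and 34.4% lower, 9 of 10 macrophage, 10 of 10 fibroblast and stellate cell, 8 of 9 endothelial and 7 of 10 ductal markers were higher, and 7 of 10 islet markers were lower. Neutrophil markers split into 5 higher and 1 lower of 9 tested, T and NK cell markers into 5 and 3 of 8, B and plasma cell markers into 2 and 1 of 7, and 1 of 4 erythroid markers was higher. In bulk samples such as these, fewer cells of a type and less RNA per cell cannot be told apart.

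Of the 42 carriers, 34 passed the filter of a signal well above background in 3 or more samples and were tested. With limma at an adjusted p below 0.05, 9 carriers were higher in KCS (26.5% of those tested, where 25.9% of all rows were higher) and 14 were lower (41.2%, where 34.4% of all rows were lower). The 3 samples of each group did not overlap in 10 carriers with KCS above KC (29.4%, against 29.8% of all rows) and in 14 with KCS below KC (41.2%, against 38.4%). The median log2 fold change of the 34 carriers was -0.17, beside -0.19 for all rows. Single carriers spread widely around it, from -8.94 for Slc38a5 to 3.56 for Slc36a2. With spike-in scaling the split was 26 higher and 5 lower, and the median of the carriers was 2.72. Of the lower calls, Slc1a4, Slc1a5, Slc3a2, Slc7a1, Slc7a14 and Slc38a10 were called higher under that scaling (adjusted p from 6.75e-05 to 0.0199). With median centring it was 11 and 13, while all rows split into 9151 higher and 7043 lower, against 7019 and 9330. The 14 lower calls included Slc7a5, Slc7a8 and their heavy chain Slc3a2, the cationic carriers Slc7a1 and Slc7a3, the glutamine carriers Slc1a5, Slc38a3 and Slc38a5, and the glutamate carrier Slc1a3. The 9 higher calls included Slc7a7, Slc7a11, Slc43a2 and Slc38a6.

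**Figure D1:**
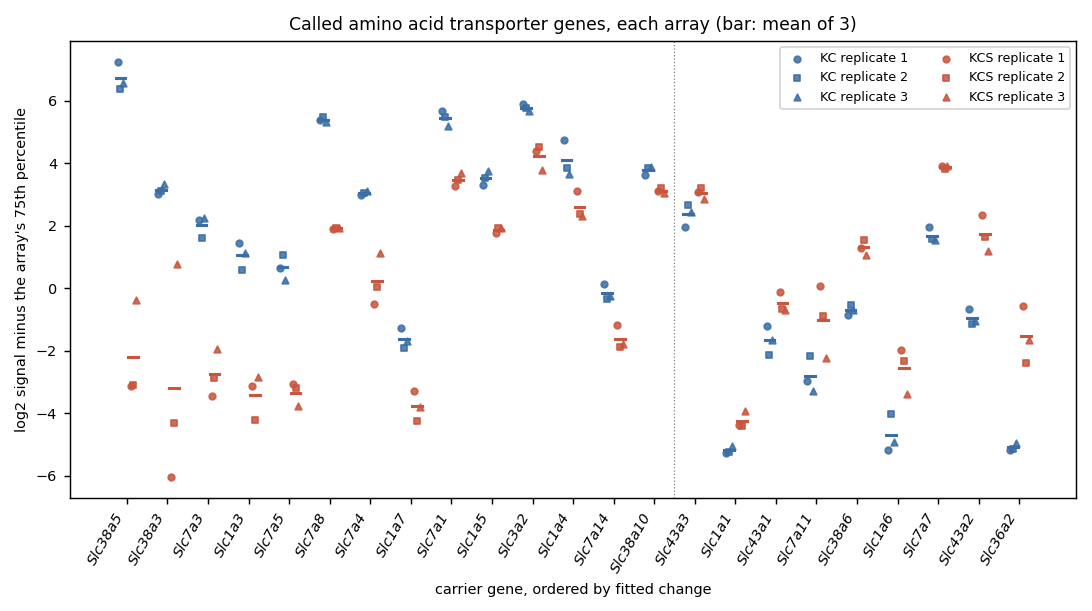
Level of each called carrier gene on each array, as log2 signal minus the array's 75th percentile, with blue for KC, red for KCS, the shape for the replicate and a bar for the mean of 3. Left of the dotted line are the 14 genes called lower in KCS, from Slc38a5 to Slc38a10, and right of it the 9 called higher. KC and KCS points overlap for Slc7a11 and for no other gene drawn.

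The heavy chain and its main light chains for large neutral amino acids were all lower in KCS. Slc3a2, the heavy chain also known as CD98, read 5.88, 5.76 and 5.67 in KC replicates 1, 2 and 3 and 4.39, 4.53 and 3.78 in KCS. No KCS sample reached the lowest KC sample, and the gene fell by 1.53 ± 0.24 (SE, adjusted p = 0.00208). With spike-in scaling Slc3a2 was called higher instead, at 1.36 (adjusted p = 0.00765). Slc7a5, the LAT1 light chain that imports leucine and other large neutral amino acids, read 0.67, 1.07 and 0.28 in KC and -3.07, -3.19 and -3.76 in KCS. It fell by 4.01 ± 0.29 (adjusted p = 0.000152), which is 16.1-fold, and was still called lower with spike-in scaling (-1.12, adjusted p = 0.0251). Slc7a8, the LAT2 light chain with a broader choice of neutral amino acids, read 5.38, 5.47 and 5.33 in KC and 1.91, 1.94 and 1.92 in KCS. Its samples lay close together, with an SD of 0.07 in KC and 0.02 in KCS. Slc7a8 fell by 3.47 ± 0.16 (adjusted p = 7.09e-05), or 11.1-fold, and its spike-in value of -0.57 did not pass (adjusted p = 0.0881). Second probes of Slc3a2 and Slc7a8 went the same way, at -2.55 and -4.58. That of Slc7a8 was well above background in only 2 KCS samples, so the size of its fall is not exact. The other heavy chain gene, Slc3a1, which pairs with Slc7a9 in the uptake of cystine and cationic amino acids, read -4.24, -3.71 and -5.16 in KC and -5.48, -4.48 and -4.94 in KCS. It was well above background on 2 KCS arrays only and was not tested. Slc7a9 itself, at -4.51, -5.14 and -4.43 in KC and -5.69, -5.48 and -4.75 in KCS, was well above background on 1 KCS array and was not tested either.

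Of the SLC43 carriers of large neutral amino acids, which need no heavy chain, Slc43a2 was higher in KCS and Slc43a1 gave conflicting probes. Slc43a2, which encodes LAT4, read -0.65, -1.12 and -1.04 in KC and 2.35, 1.64 and 1.21 in KCS. All KCS samples were above all KC samples, and it rose by 2.67 ± 0.32 (adjusted p = 0.000743; 5.57 with spike-in scaling). Its second probe was at 1.48 (adjusted p = 0.0105), but was well above background in only 1 KC sample, so that size is not exact. Slc43a1, which encodes LAT3, read -1.21, -2.14 and -1.64 in KC and -0.11, -0.65 and -0.70 in KCS on the probe with the higher signal. On that probe it was called higher by 1.18 ± 0.30 (adjusted p = 0.0141), but the second probe was called lower (-0.77, adjusted p = 0.0289), so the 2 probes give no common direction for Slc43a1. The mean of both was 0.20 (adjusted p = 0.52), and with normexp the call was lost too (adjusted p = 0.213). Slc43a3, known as a carrier of purine nucleobases and not of amino acids, was called higher by 0.68 ± 0.24 (adjusted p = 0.0437). That call was lost without any of 5 single arrays, with adjusted p from 0.0567 to 0.133, and kept without KC replicate 2. All 3 tested SLC43 genes were thus called higher, against 25.9% of all rows, but 1 of them on conflicting probes.

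Beside the SLC43 genes, macrophage markers were higher in KCS, as were most fibroblast and stellate cell, endothelial and ductal markers. The summed level of the 10 macrophage markers, in units of the array's 75th percentile, was 25.2 to 39.9 in KC samples and 338 to 456 in KCS samples. Of these markers Fcgr1 alone was not well above background in KC. For fibroblast and stellate cell markers the sum was 203 to 272 in KC and 1113 to 1370 in KCS. The part of any of these cells in the carrier values was not tested.

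Among the carriers of cationic amino acids, the lower calls were Slc7a1 and Slc7a3. Slc7a1, the widely used arginine and lysine carrier CAT1, read 5.66, 5.47 and 5.19 in KC and 3.27, 3.47 and 3.69 in KCS. It fell by 1.96 ± 0.21 (adjusted p = 0.000463), and was called higher at 0.93 (adjusted p = 0.0175) with spike-in scaling, where most rows were higher. Slc7a3, the related carrier CAT3, read 2.19, 1.62 and 2.25 in KC and -3.45, -2.87 and -1.93 in KCS. The groups lay far apart, and Slc7a3 fell by 4.77 ± 0.41 (adjusted p = 0.000242; -1.87 with spike-in scaling), or 27.2-fold. Slc7a2, which encodes the inducible arginine carrier CAT2, read 0.05, -0.61 and -0.07 in KC and 0.56, 0.33 and -0.50 in KCS. Its groups overlapped and its change of 0.34 ± 0.34 did not pass (adjusted p = 0.408). Slc7a4, an orphan member of the same branch, read 2.99, 3.03 and 3.11 in KC and -0.51, 0.05 and 1.14 in KCS, and fell by 2.82 ± 0.41 (adjusted p = 0.00153; 0.08 with spike-in scaling). Slc7a14, another relative of the cationic carriers, fell by 1.47 ± 0.26 (adjusted p = 0.00322) and was at 1.43 with spike-in scaling. Its second probe, not well above background in any KC sample, was at -0.46 and did not pass (adjusted p = 0.295).

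The light chains of system y+L, which exchange cationic for neutral amino acids, differed from each other. Slc7a7, known for its role in epithelia and in macrophages, read 1.95, 1.57 and 1.54 in KC and 3.90, 3.83 and 3.90 in KCS. It rose by 2.19 ± 0.19 (adjusted p = 0.000229; 5.08 with spike-in scaling), or 4.55-fold, and the SD of the KCS samples was 0.04. Slc7a6, the other y+L light chain, read 2.23, 1.29 and 2.06 in KC and 1.55, 1.56 and 1.24 in KCS. Its groups overlapped and its value of -0.41 ± 0.29 did not pass (adjusted p = 0.256). The opposite-strand locus Slc7a6os was at -0.19 ± 0.23 (adjusted p = 0.487).

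Slc7a11, the xCT light chain that brings in cystine in exchange for glutamate, was the least even of the higher calls. It read -2.96, -2.16 and -3.30 in KC and 0.07, -0.90 and -2.22 in KCS. KCS replicate 1 was the highest, and KCS replicate 3 lay below KC replicate 2, so the groups overlapped. The change was 1.79 ± 0.60 (adjusted p = 0.0398). Slide by slide it was 3.03 in the first and 1.17 in the second. The call was lost without KC replicate 1, KC replicate 3, KCS replicate 1 or KCS replicate 2 (adjusted p from 0.0884 to 0.119), with a mean of its probes (adjusted p = 0.0548) and in the second slide alone (adjusted p = 0.169). Its second probe was at 1.10 (adjusted p = 0.0895). Normexp background correction gave 0.19 (adjusted p = 0.661). The other light chains for small neutral amino acids and cystine, Slc7a10, Slc7a12 and Slc7a13, had too little signal to be tested, as did Slc7a15.

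**Figure D2:**
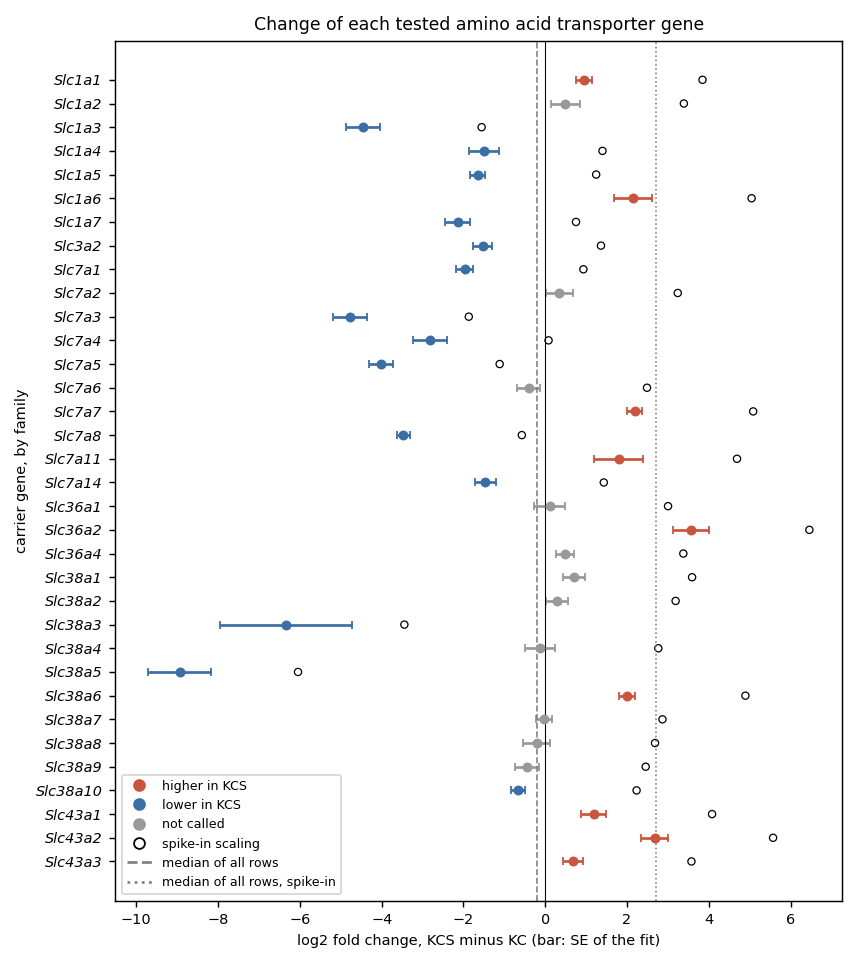
Fitted log2 fold change, KCS minus KC, of the 34 tested carriers in family order, with the SE of the fit as a bar. Red points were called higher, blue lower and grey not called, and open circles give the value with spike-in scaling. The dashed line at -0.19 and the dotted line at 2.70 mark the medians of all rows under the 2 scalings. Slc38a5, Slc38a3, Slc7a3, Slc1a3, Slc7a5 and Slc7a8 lie below 0 under both.

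In the SLC1 family, both neutral exchangers were lower in KCS. Slc1a5, the glutamine exchanger ASCT2, read 3.30, 3.52 and 3.75 in KC and 1.78, 1.92 and 1.92 in KCS, and fell by 1.65 ± 0.19 (adjusted p = 0.00057; 1.24 with spike-in scaling). Slc1a4, the alanine, serine and cysteine exchanger ASCT1, read 4.75, 3.86 and 3.67 in KC and 3.12, 2.36 and 2.30 in KCS. KC replicate 1 was the highest of its group and KCS replicate 1 the highest of the other, and the groups did not overlap. Slc1a4 fell by 1.50 ± 0.37 (adjusted p = 0.0121; 1.40 with spike-in scaling).

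Among the glutamate carriers of the SLC1 family, Slc1a3 and Slc1a7 were lower in KCS, while the direction of the others depended on the background correction. Slc1a3, a high-affinity glutamate and aspartate carrier best known from glia, read 1.44, 0.57 and 1.14 in KC and -3.14, -4.21 and -2.85 in KCS. It fell by 4.45 ± 0.41 (adjusted p = 0.000294; -1.56 with spike-in scaling), or 21.9-fold. Slc1a7, a glutamate carrier best known from the retina, fell by 2.15 ± 0.30 (adjusted p = 0.00135; 0.75 with spike-in scaling). Slc1a1, Slc1a2 and Slc1a6 stayed near background in all 3 KC samples, not well above it, so their KC level is only a bound. Slc1a1, the widely expressed glutamate and cysteine carrier, read -5.26, -5.22 and -5.05 in KC and -4.38, -4.40 and -3.92 in KCS. The fit called it higher (adjusted p = 0.00709), but against the lowest signal well above background on the KC arrays no fold remained. Slc1a6 read -5.18, -4.01 and -4.92 in KC and -1.97, -2.33 and -3.37 in KCS. The fit called Slc1a6 higher (adjusted p = 0.00706), and in the processed signal the KCS level was at least 1.39-fold higher. With normexp, a different background correction, both turned and were called lower, Slc1a1 at -1.33 (adjusted p = 4.07e-05) and Slc1a6 at -0.73 (adjusted p = 0.00677). Slc1a2 read -5.40, -4.01 and -4.73 in KC and -4.35, -4.15 and -4.17 in KCS, and did not pass (adjusted p = 0.267), but was called lower with normexp (-1.38, adjusted p = 2.83e-05).

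The largest falls of all carriers were in system N, the sodium-coupled carriers of glutamine, asparagine and histidine. Slc38a5, which encodes SNAT5, read 7.25, 6.39 and 6.56 in KC replicates 1, 2 and 3 and -3.14, -3.10 and -0.39 in KCS. It fell by 8.94 ± 0.76 (adjusted p = 0.000233), or 491-fold, and was -6.04 with spike-in scaling. Slc38a3, which encodes SNAT3, read 3.01, 3.11 and 3.33 in KC and -6.04, -4.30 and 0.77 in KCS. It fell by 6.34 ± 1.62 (adjusted p = 0.0143; -3.45 with spike-in scaling), and it was not well above background in KCS replicate 1, so the size of its fall is not exact. The KC samples lay close together (SD 0.46 for Slc38a5 and 0.17 for Slc38a3), while the KCS samples spread widely (SD 1.58 and 3.54). KCS replicate 3 was the highest of its group in both genes, as it was in the acinar marker median. Without that sample the change in Slc38a5 was -9.85. Within the second slide the call of Slc38a3 was lost (-4.99, adjusted p = 0.0623). Its value within the first slide rests on KCS replicate 1 and has no exact size, while Slc38a5 was -10.39 there.

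The 14 lower carriers did not share 1 order of KCS samples. KCS replicate 3 was above the mean of the other KCS samples in 8 of them and below it in 6, with a median difference of 0.04 and a range from -0.69 to 5.95. It exceeded the mean of the other KCS samples by 5.95 in Slc38a3, 2.73 in Slc38a5, 1.37 in Slc7a4 and 1.23 in Slc7a3, the 4 with the largest difference, named after their values were seen. The summed acinar level over 15 genes was 35016 to 40966 in KC samples and 3.72 to 2367 in KCS samples. The part of the acinar signal in the carrier values was not tested.

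**Figure D3:**
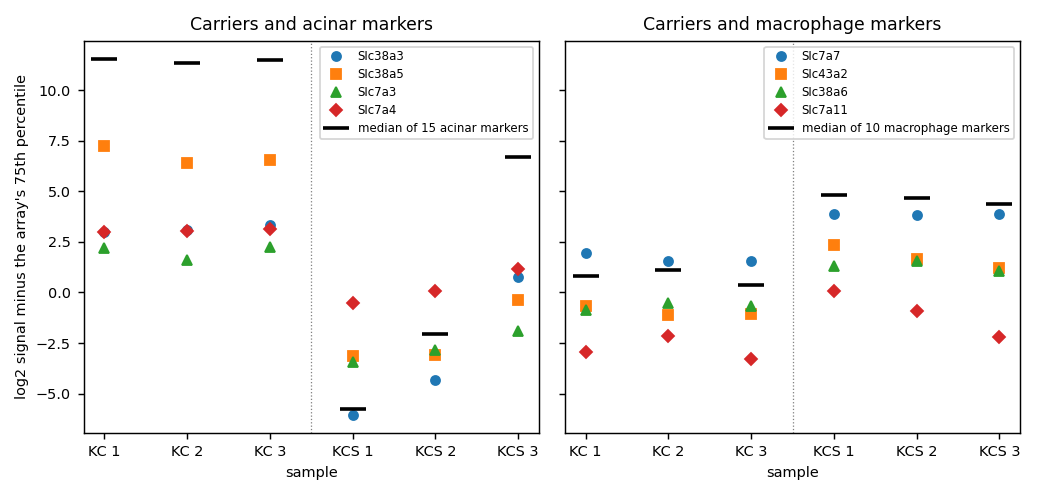
Level of 8 carriers on each of the 6 arrays, as log2 signal minus the array's 75th percentile, with black bars for the median of 15 acinar markers (left) or 10 macrophage markers (right). KCS replicate 3 has the highest acinar median of its group, at 6.68, and also the highest Slc38a3, Slc38a5, Slc7a3 and Slc7a4. The KCS levels of Slc7a7 hardly differ between samples.

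System A, the other sodium-coupled group of SLC38, had no gene called on its brightest probe. Slc38a2, the SNAT2 carrier that many cells raise when amino acids are short, read 3.12, 3.24 and 2.77 in KC and 3.60, 3.52 and 2.87 in KCS. Its groups overlapped and its change of 0.29 ± 0.26 did not pass (adjusted p = 0.369). Slc38a1, which encodes SNAT1, read 2.29, 2.54 and 2.48 in KC and 3.48, 3.32 and 2.60 in KCS on its brightest probe, where 0.69 ± 0.27 missed the threshold (adjusted p = 0.0623). Its other probes were called higher, at 1.18 (adjusted p = 0.0141) and 1.91 (adjusted p = 0.00208). The probe at 1.91 was not well above background in any KC sample, so 1.91 is not the size of the change. Its KCS level was at least 1.47-fold higher in the processed signal. Slc38a1 was called with the mean of its probes, which takes in that probe (1.26, adjusted p = 0.00787). Other alternatives that called it were median centring (1.05, adjusted p = 0.0194) and leaving out KCS replicate 3 (0.96, adjusted p = 0.011). Slc38a4, an imprinted carrier of neutral and cationic amino acids, was at -0.13 ± 0.36 (adjusted p = 0.769) on its brightest probe. Its second probe was called lower (-1.12, adjusted p = 0.0351), with all KCS samples below all KC samples.

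Among the remaining SLC38 genes, Slc38a6 was higher and Slc38a10 lower. Slc38a6, an orphan member, read -0.85, -0.53 and -0.68 in KC and 1.29, 1.56 and 1.08 in KCS and rose by 2.0 ± 0.20 (adjusted p = 0.000393; 4.89 with spike-in scaling). A second probe gave 1.96, but was well above background in only 1 KC sample, so that size is not exact. A further one was at -0.60 (adjusted p = 0.0732), so not all probes of Slc38a6 moved up. Slc38a10 fell by 0.66 ± 0.17 (adjusted p = 0.0143), with 2.23 under spike-in scaling and -0.31 with median centring, where it did not pass (adjusted p = 0.174). Its other probes were at -2.42 and -0.39. The lysosomal arginine sensor Slc38a9, which couples amino acid content to mTORC1, read 0.44, -0.07 and 0.94 in KC and -0.10, 0.21 and -0.12 in KCS and did not pass (-0.44 ± 0.29, adjusted p = 0.222). Neither did Slc38a7, a lysosomal glutamine carrier (-0.03 ± 0.21), nor Slc38a8 (-0.21 ± 0.33). Slc38a11 was not tested.

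Among the proton-coupled carriers Slc36a2 alone was called. It read -5.16, -5.14 and -4.96 in KC and -0.56, -2.37 and -1.65 in KCS. No KC array had it well above background, so the fitted value of 3.56 (adjusted p = 0.000815) is not the size of the change. In the processed signal the KCS level was at least 2.84-fold higher. With normexp it was at -0.14, where the call was lost (adjusted p = 0.658). Slc36a1, the lysosomal proton and amino acid carrier PAT1, read -1.37, 0.07 and -0.24 in KC and -0.38, -0.39 and -0.44 in KCS. KC replicate 1 was the lowest of all samples, and the change of 0.11 ± 0.38 did not pass (adjusted p = 0.824). A second Slc36a1 probe was called lower (-0.91, adjusted p = 0.044). Slc36a4 was at 0.48 ± 0.22 and did not pass (adjusted p = 0.0974). Its groups were barely apart, with KCS replicate 3 at -1.49 and KC replicate 3 at -1.51. Slc36a3 and the opposite-strand locus Slc36a1os were not well above background on any array.

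Several carriers had more than 1 probe, which gives a second reading of the same gene. Of 42 carriers 17 had several probes and 13 had several that were tested. In 4 of these 13 the probes had both signs: Slc7a6, Slc36a1, Slc38a6 and Slc43a1. Only Slc43a1 was called in both directions. The probes of Slc1a1, Slc3a2, Slc7a8 and Slc43a2 were all called in 1 direction.

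**Figure D4:**
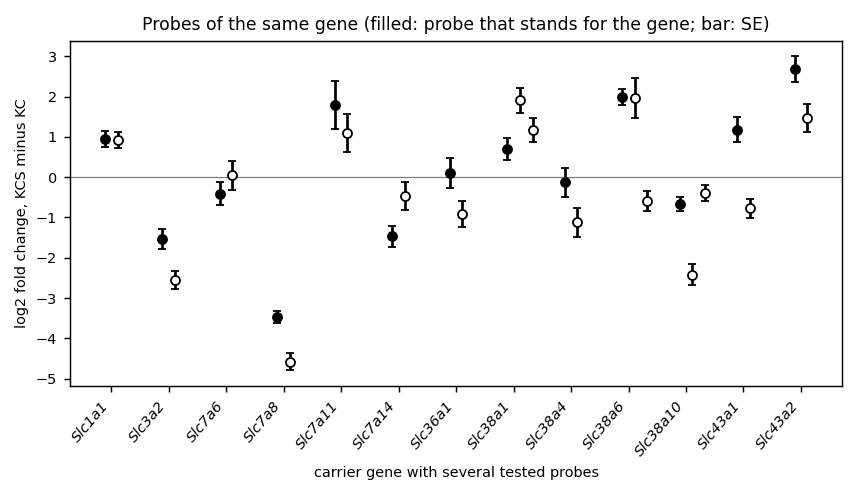
Log2 fold change, KCS minus KC, of each tested probe of the 13 carriers with several tested probes, with the SE of the fit as a bar. Filled points are the probe that stands for the gene and open points the others. The 2 probes of Slc43a1 lie at 1.18 and -0.77, on opposite sides of 0, while both probes of Slc7a8 lie below -3.

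Promoter windows, from 250 bases before to 50 after the start of transcription, were found in RefSeq (GRCm38.p6) for 31 of the 42 carriers and searched on both strands. The first motif was TGATGNAA, the core of the amino acid response element that ATF4 binds in several transporter genes. It was in windows of 3 carriers (9.68% of 31), Slc1a4, Slc7a7 and Slc7a11, where 4.51% of all 27025 genes had it. The second was TGACNNNGC, the antioxidant response element bound by NRF2, in 5 carriers (16.1%, against 14% of all genes), Slc7a1, Slc7a6, Slc36a1, Slc38a2 and Slc43a1. The 3 carriers with the first motif are shown because they did not move as a group: Slc7a7 and Slc7a11 were called higher and Slc1a4 lower. Each stretch runs 5′ to 3′ on the gene's own strand, the minus strand in all 3, from position -150 to 10 around the start, with matches in capitals.
Slc7a11 (chr3:50443604-50443763): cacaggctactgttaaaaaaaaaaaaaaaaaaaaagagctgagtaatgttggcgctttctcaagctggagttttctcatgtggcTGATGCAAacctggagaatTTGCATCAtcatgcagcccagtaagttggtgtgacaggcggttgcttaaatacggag
Slc1a4 (chr11:20332704-20332863): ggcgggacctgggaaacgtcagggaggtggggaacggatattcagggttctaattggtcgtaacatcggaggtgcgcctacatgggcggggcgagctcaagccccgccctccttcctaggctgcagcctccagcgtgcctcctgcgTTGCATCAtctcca
Slc7a7 (chr14:54417935-54418094): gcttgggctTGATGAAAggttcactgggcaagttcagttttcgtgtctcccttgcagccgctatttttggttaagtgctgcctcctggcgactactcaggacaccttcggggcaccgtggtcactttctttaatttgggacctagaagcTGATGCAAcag
Slc7a11 held 2 matches, TGATGCAA at -66 and TTGCATCA, the same core on the other strand, at -47, counted at their first base from the start of transcription. Slc1a4 had 1 match on the other strand at -4. The window of Slc7a7 shown, for 1 of its listed starts, had TGATGAAA at -141 and TGATGCAA at -1. A match describes these letters and is not evidence of binding.

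Other carriers and enzymes that handle amino acids were counted from lists drawn up by function, beside 25.9% of all rows higher and 34.4% lower. Of 11 SLC6 amino acid carriers 4 were tested, of which 1 was higher and 3 were lower (median -2.50). Slc6a9, the glycine carrier GlyT1, fell by 3.70 ± 0.32 (adjusted p = 0.000246; -0.80 with spike-in scaling), from 6.56, 5.92 and 6.76 in KC to 2.48, 2.44 and 3.23 in KCS. Slc6a17, a vesicular neutral amino acid carrier, fell by 4.38 ± 0.32 and the proline carrier Slc6a20a by 1.29 ± 0.27, with -1.49 and 1.60 under spike-in scaling. The taurine carrier Slc6a6 rose by 2.74 ± 0.25 (adjusted p = 0.000291). Of 13 carriers of aromatic amino acids, peptides and lysosomal or vesicular cargo 8 were tested, of which 4 were higher and 4 were not called (median 0.43). Slc15a3, a lysosomal peptide and histidine carrier of leukocytes, was at least 37-fold higher in the processed signal. Slc16a10, the aromatic amino acid carrier TAT1, was at least 3.86-fold higher there. Neither was well above background in KC. Slc15a4, a relative of Slc15a3, rose by 1.31 ± 0.33, and Slc66a1, a lysosomal exporter of cationic amino acids, by 0.70 ± 0.22.

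Of 12 mitochondrial amino acid carriers 11 were tested, with 1 higher (9.1%, against 25.9% of all rows) and 6 lower (54.5%, against 34.4%). Their median was -0.65, and 2.25 with spike-in scaling. Slc25a22, a mitochondrial glutamate carrier, read 4.03, 3.46 and 3.22 in KC and -0.89, -0.71 and -0.67 in KCS and fell by 4.32 ± 0.25 (adjusted p = 9.58e-05; -1.43 with spike-in scaling). The mitochondrial serine carrier Sfxn1 (-1.63 ± 0.19), its relative Sfxn2 (-2.47 ± 0.18) and Slc25a29, a carrier of basic amino acids (-1.79 ± 0.27), fell too, with 1.27, 0.43 and 1.10 under spike-in scaling. In the list of mTORC1 amino acid sensing 31 of 32 genes were tested, with 6 higher (19.4%) and 11 lower (35.5%). Over all rows the shares were 25.9% and 34.4%. The median of the list was -0.18, beside -0.19 for all rows. Rragd, a Rag GTPase, fell by 3.83 ± 0.24 and Sesn1, a sestrin, by 3.18 ± 0.34. Castor1, an arginine sensor, was at least 1.82-fold higher in the processed signal and not well above background in KC. Lamtor5, a subunit of the Ragulator complex, fell by 1.52 ± 0.25 (1.38 with spike-in scaling), and Mtor itself was at -0.08 ± 0.22 (adjusted p = 0.764).

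Among genes of amino acid metabolism, those on the lists of glutamine and glutamate and of branched-chain metabolism were mostly lower. Of 14 genes of glutamine and glutamate metabolism 10 were lower (71.4%, against 34.4% of all rows) and 4 were not called. Their median was -1.71, and 1.18 with spike-in scaling. Asns, which makes asparagine from aspartate and glutamine, read 8.34, 8.13 and 8.11 in KC and 3.40, 3.16 and 4.48 in KCS and fell by 4.51 ± 0.36 (adjusted p = 0.000193; -1.62 with spike-in scaling). Gpt2, a mitochondrial alanine transaminase (-3.34 ± 0.19), Pycr1 of proline synthesis (-3.41 ± 0.31) and Psat1 of serine synthesis (-2.64 ± 0.31) fell, and Psat1 was at 0.25 with spike-in scaling. Of 12 genes of branched-chain amino acid metabolism 9 were lower (75%, against 34.4% of all rows) and 1 was higher (8.3%, against 25.9%). Their median was -2.63, and 0.26 with spike-in scaling. Bcat2, the mitochondrial transaminase (-3.69 ± 0.24), Bckdha and Bckdhb of the branched-chain ketoacid dehydrogenase (-2.89 ± 0.17 and -3.55 ± 0.23) and its kinase Bckdk (-3.33 ± 0.20) fell, and Bckdha was at 0.0091 with spike-in scaling. The higher gene was Bcat1, the cytosolic transaminase, which read -2.03, -2.67 and -3.02 in KC and 1.05, 1.35 and 2.05 in KCS, a change of 4.06 ± 0.36 (adjusted p = 0.000262). Bcat1 was well above background in only 2 KC samples, so the size of its rise is not exact. Of 14 genes of glutathione synthesis and turnover 4 were higher (28.6%, against 25.9% of all rows) and 6 lower (42.9%, against 34.4%). Their median was -0.04. Ggt1, which releases amino acids from glutathione at the cell surface, fell by 8.93 ± 1.34 (adjusted p = 0.00168), with -6.90, -4.97 and -1.16 in KCS replicates 1, 2 and 3 against 4.57, 4.60 and 4.59 in KC. It was not well above background in KCS replicate 1, so the size of the fall is not exact. The glutathione-degrading enzyme gene Chac2 fell by 2.36 ± 0.29 (0.54 with spike-in scaling). Gsr, which reduces oxidised glutathione, rose by 1.92 ± 0.26 and Ggct, which acts on gamma-glutamyl peptides, by 2.75 ± 0.39.

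**Figure D5:**
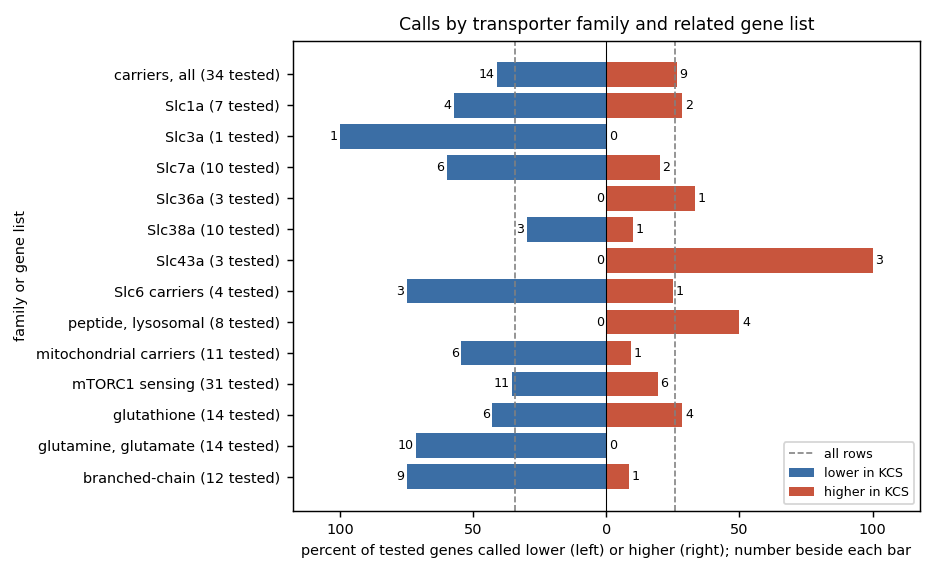
Percent of tested genes called lower (left, blue) or higher (right, red) in KCS for the carriers by family and for 7 lists of related genes, with the number of genes beside each bar. Dashed lines mark 34.4% lower and 25.9% higher over all 27102 rows. The bars of all 34 carriers end at 41.2% lower and 26.5% higher, and those of small families rest on 1 to 10 genes.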

How the data were processed

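Per the file headers, each of the 6 deposited files holds the spots of 1 one-colour array, read with Agilent Feature Extraction 12.0.3.1. Its processed signal is an intensity already corrected for background. The deposited value table holds log2 values, which matched the signals scaled as below and centred by probe with outlier spots kept, r across 36110 probes rounding to 1 on each array, so its scale, centring and direction are known. The median of each column was -0.01, 0.05 and 0.10 (KC replicates 1 to 3) and -0.05, -0.03 and -0.04 (KCS replicates 1 to 3). Outlier-marked spots, 88 to 140 on an array, were dropped, and spots of 1 probe were averaged. Each array's 75th percentile was subtracted from its log2 signals. Accessions were matched to RefSeq (GRCm38.p6), which named 33762 of 56605 probes. The files name another build, so only promoter windows carry coordinates. The probe with the highest mean stood for a gene, among probes well above background on at least 3 arrays. KCS was compared with KC by limma 3.58.1 in R 4.3.3, two-sided, with Benjamini-Hochberg adjustment over 27102 rows and a threshold of 0.05. Every adjusted p is from limma, and that of a gene's further probes from a fit of each of 34485 probes on its own. A gene not well above background in KC has a bounded fold, taken against its own KC signal or, where higher, each array's dimmest signal that passed as well above background. Such a bound holds for the processed signal only. Arrays give no counting depth, and their number limits the precision. Slide 1 held replicate 1 of both groups and slide 2 the rest. By the rule for named genes, full values are given for 22 carriers listed by function and for the 4 largest called changes each way without overlap, and from each other list up to 4 genes with the smallest p are named. Bcat1 and Mtor were named outside it, after their values were seen. The full values of Slc7a4 and Slc38a6 were given outside it too. The transporters and lists were chosen with earlier results of these data known. In simulated data of KCS and KC samples over 27102 rows, only 50 genes were changed at each size. The share of changed genes recovered was 0% at log2 changes of 0.5 and 1, 40% at 2 and 76% at 4, with 4 unchanged genes called. In the data far more rows were called, 7019 higher and 9330 lower. The adjustment is stricter where few rows change, so these shares do not measure what could be detected in the data. Python 3.11.15 was used for tables.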

Additional observations from a re-analysis of the deposited data

How the results depend on the processing

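With spike-in scaling 26 carriers were called higher and 5 lower, and over all rows 23632 and 772. That scaling compares amounts only if equal RNA and controls went into each reaction, which is not known here. All rows called lower were 14917 with normexp on median signals, chosen after the data were seen because the files have no mean signal, and 24764 without the filter on dim probes, where more rows were tested. Leaving out 1 array gave 7 to 10 higher and 14 to 15 lower carriers, and 5708 to 6593 higher and 7693 to 8951 lower over all rows. In every other alternative run, these counts stayed within 1.5 times: the carriers higher were 6 to 11 and lower 11 to 17. With spike-in scaling these values changed sign: Slc1a4 1.40, Slc1a5 1.24, Slc1a7 0.75, Slc3a2 1.36, Slc7a1 0.93, Slc7a4 0.080, Slc7a6 2.49, Slc7a14 1.43, Slc38a4 2.76, Slc38a7 2.86, Slc38a8 2.68, Slc38a9 2.45 and Slc38a10 2.23. Among them, Slc1a4, Slc1a5, Slc3a2, Slc7a1, Slc7a14 and Slc38a10 went from called lower to called higher. Slc1a7 and Slc7a4 were no longer called (adjusted p = 0.105 and 0.833). With normexp the sign changed for Slc1a1 (-1.33), Slc1a2 (-1.38), Slc1a6 (-0.73), Slc7a6 (0.060), Slc36a1 (-0.16), Slc36a2 (-0.14) and Slc36a4 (-0.32), and with median centring for Slc38a4 (0.22), Slc38a7 (0.32) and Slc38a8 (0.14), these last 3 not called under either. Slc36a1 was -0.40 with the mean of its probes, -0.33 in the second slide alone, and -0.32 (without KC replicate 1) to 0.40 (without KC replicate 2) with 1 array left out. Slc38a4 was 0.35 in the second slide alone, and -0.42 (without KCS replicate 3) to 0.22 (without KCS replicate 1) with 1 array left out, 0.0030 without KC replicate 1. Slc38a7 was -0.19 (without KCS replicate 1) to 0.070 (without KCS replicate 3), and Slc38a8 -0.42 (without KCS replicate 1) to 0.055 (without KC replicate 1). No called carrier changed sign with 1 array left out, and 2 of 23 lost their call in at least 1 such fit. The cause of these moves was not tested. Same-numbered samples did not all deviate together (r = 0.33, 0.04 and 0.14 across rows for replicates 1, 2 and 3, and KC replicates 2 and 3 correlated best with KCS replicates 3 and 2), so the numbers were not taken as pairs. With the replicate number as a block 8 carriers were higher and 14 lower, Slc43a3 losing its call (adjusted p = 0.0510), and with the slide as a block 9 and 14. The planned normexp on mean signals was not run.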
